A study of Mus musculus with 6 samples.

Results

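A stretch of mouse chromosome 1 that holds the Sp100, Sp110 and Sp140 genes and a run of related gene copies was described in sperm chromatin of wild-type and protamine 1 mutant mice. Its members were all peaks of 6 deposited peak lists that lie between positions 84000001 and 87000000 of chromosome 1 (mm10), 295 of 83628 peaks in all. The stretch was chosen by the positions of peaks in these same lists. The number of peaks, their share of a list and the length they cover are therefore given as descriptions, with no test. The outermost members were a WT 4 peak at 84132054 to 84132683 (fold 2.62) and a WT 2 peak at 86927266 to 86928209 (fold 3.29). The nearest peaks beyond the limits were both from WT 3, at 83407557 to 83408230 (fold 3.06) and at 87066889 to 87067097 (fold 2.42).

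The peaks came from micrococcal nuclease sequencing (MNase-seq) of sperm taken from the epididymis and vas deferens. The 4 wild-type libraries (WT 1 to WT 4) came from C57BL6 mice. The 2 mutant libraries (K49A 1 and K49A 2) came from mice with the K49A substitution in protamine 1, with a strain background not stated in the sources used here. All 6 libraries had the same preparation, with DNase I on the intact sperm, detergent, opening of the chromatin with DTT, and digestion with 5 and then 15 units of MNase before the mononucleosome band was cut from a gel. The series design calls the libraries biological replicates, and the number of animals pooled per library is not stated there. The p-values below measure the spread between these libraries. The files hold DNA regions and no expression, so the sperm label could not be checked against marker genes, and the read depth of each library is unknown from them.

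In late spermatids most histones are replaced by protamines, small arginine-rich proteins that pack DNA tightly. Some DNA stays in nucleosomes, and MNase cuts the open DNA around them, so a peak marks where nucleosome-sized fragments were recovered above the background. Sp100, Sp110 and Sp140 encode speckled proteins, which sit in nuclear bodies, read chromatin through bromodomains and related modules, and are induced by interferon in immune cells. In the mouse these genes lie beside a region in which parts of Sp100 and of other genes nearby have been copied many times. Several gene models here, among them Gm7592 and Gm7609, lie in that region.

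The gene starts themselves show the copying. RefSeq promoter windows, from 250 bases before to 50 bases after a start (GRCm38.p6, the build of mm10), were compared without gaps along the direction of each gene. The Gm7609 and Sp100 windows lie 450.4 kb apart and had the same base at 293 of 298 compared positions, 98.3% identity. The A530032D15Rik and Sp140 windows lie 491 kb apart on opposite strands and had the same base at 270 of 271 positions, 99.6%. These pairs are shown because the copies are nearly the same letter for letter. Capitals mark the positions that differ within a pair. The spans are chr1:85199361-85199658 (plus strand) for Gm7609, chr1:85649766-85650063 (plus) for Sp100, chr1:85109804-85110074 (minus) for A530032D15Rik and chr1:85600453-85600723 (plus) for Sp140.
Gm7609: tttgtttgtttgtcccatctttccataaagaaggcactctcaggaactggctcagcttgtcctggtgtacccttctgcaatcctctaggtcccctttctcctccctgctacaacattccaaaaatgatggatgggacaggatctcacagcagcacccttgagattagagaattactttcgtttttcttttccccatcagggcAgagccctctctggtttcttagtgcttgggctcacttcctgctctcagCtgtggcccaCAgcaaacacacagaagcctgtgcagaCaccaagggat
Sp100: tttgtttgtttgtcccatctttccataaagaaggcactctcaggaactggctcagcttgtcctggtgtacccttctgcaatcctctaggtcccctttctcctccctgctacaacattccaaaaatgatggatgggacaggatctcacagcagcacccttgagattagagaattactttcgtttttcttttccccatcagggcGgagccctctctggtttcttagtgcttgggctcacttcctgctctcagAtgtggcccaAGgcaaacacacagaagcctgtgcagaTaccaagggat
A530032D15Rik: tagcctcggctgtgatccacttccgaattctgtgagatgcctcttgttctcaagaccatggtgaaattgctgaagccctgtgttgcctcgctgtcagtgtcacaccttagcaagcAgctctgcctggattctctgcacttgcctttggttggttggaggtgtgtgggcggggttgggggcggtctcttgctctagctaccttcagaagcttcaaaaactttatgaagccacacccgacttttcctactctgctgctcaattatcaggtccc
Sp140: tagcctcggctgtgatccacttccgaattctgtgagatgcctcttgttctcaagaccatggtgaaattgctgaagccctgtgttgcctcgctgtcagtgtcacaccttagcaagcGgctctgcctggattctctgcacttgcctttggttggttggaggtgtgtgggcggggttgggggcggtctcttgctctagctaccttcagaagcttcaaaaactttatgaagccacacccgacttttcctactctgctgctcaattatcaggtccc

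The C130026I21Rik window carried the Sp140 start as well, with the same base at 254 of 262 positions (96.9%). Counted over stretches of 20 bases on either strand, 7 of the 43 RefSeq windows in the 3 Mb (16.3%) shared at least 50 such words with a window more than 2 kb away, beside 7.54% of all 32817 windows. They were the windows of A530032D15Rik, Gm7609, C130026I21Rik, and Sp140, 1 window of Sp110 and both windows of Sp100. For all but Sp110 the closest match lay within the stretch itself. The placing of reads that match several copies is not stated in the sources used here, so a peak in any of these genes is uncertain as to which copy it came from, and the part this played in the counts was not tested.

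The Cab39 promoter is shown as a gene start rich in CpG pairs. It is not typical, as the 43 windows of the stretch held 0 to 37 CpG pairs with a median of 7. Cab39 encodes a scaffold protein of the LKB1 kinase complex. Its window at chr1:85793191-85793490 (plus strand) held 35 CpG pairs, shown in capitals, against 7 in the Sp140 window, 2 in either Sp100 window and 1 in the Gm7609 window.
Cab39: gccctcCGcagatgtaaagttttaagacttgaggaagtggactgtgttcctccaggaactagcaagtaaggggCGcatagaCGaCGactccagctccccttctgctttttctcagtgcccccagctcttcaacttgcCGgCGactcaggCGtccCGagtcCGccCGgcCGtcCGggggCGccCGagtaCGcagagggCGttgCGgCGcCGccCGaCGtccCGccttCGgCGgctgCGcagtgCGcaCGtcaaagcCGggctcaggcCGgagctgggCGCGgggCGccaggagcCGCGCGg

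The 3 Mb held 39, 58, 57 and 97 peaks in WT 1 to WT 4 and 15 and 29 in the K49A libraries. Every K49A library had fewer peaks there than every WT library, and the mean on the log2 scale was 1.51 lower (SE 0.50), or 2.85-fold. The K49A lists were much shorter everywhere, with 700 and 1017 peaks against 11313, 20458, 22237 and 27903 in WT. As a share of its list the stretch therefore stood the other way, at 0.345, 0.284, 0.256 and 0.348% in WT and at 2.14% (exact binomial 95% interval 1.20 to 3.51) and 2.85% (1.92 to 4.07) in K49A. These intervals cover counting error only. On the log2 scale the K49A share was 3.02 higher (SE 0.21), or 8.09-fold. The peaks covered 16.7, 38.2, 33.7 and 44.0 kb in WT and 5.77 and 13.2 kb in K49A.

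The lists were not made to the same p-value. All 6 ended at a −log10 q of about 1, between 1.00 and 1.04 in the authors' values. That put the weakest peak at a −log10 p of 3.75, 3.48, 3.41 and 3.32 in WT and at 4.73 and 4.55 in K49A. With a −log10 p of at least 6 asked of every list, a limit chosen after seeing the data, the 3 Mb held 10, 10, 19 and 31 peaks in WT and 12 and 19 in K49A. The groups then overlapped. With the 700 strongest peaks taken from every list, 2, 4, 1 and 2 of them lay in the stretch in WT and 15 and 22 in K49A.

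The peaks were concentrated in the middle. Of the 3 windows of 1 Mb, the one from 85000001 to 86000000 held 24, 35, 31 and 60 peaks in WT and 13 and 25 in K49A. Among 2732 windows of the genome it ranked 5, 6, 27 and 3 by number of peaks in WT 1 to WT 4 and 4 in both K49A lists. The window below it held 6, 10, 9 and 12 peaks in WT and 2 and 3 in K49A. The window above it held 9, 13, 17 and 25 in WT and 0 and 1 in K49A. In the 1 Mb on either side of the stretch neither K49A library had a peak, while WT libraries had 2 to 6 below and 7 to 17 above. An empty window was the usual case in K49A. Over the genome 2314 of 2732 windows held no K49A 1 peak, and the median window held 0 peaks in both K49A lists.

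Read against the genome, the middle window did not hold more peaks in both K49A libraries than in all 4 WT libraries. This was so at the authors' limit, where 0.0366% of windows did, and at a −log10 p of at least 6, where 0.0732% did. A larger share of the list in both K49A libraries than in all 4 WT libraries was seen in 7.54% of windows and in 2 of the 3 windows here, those below and in the middle.

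**Figure D1:**
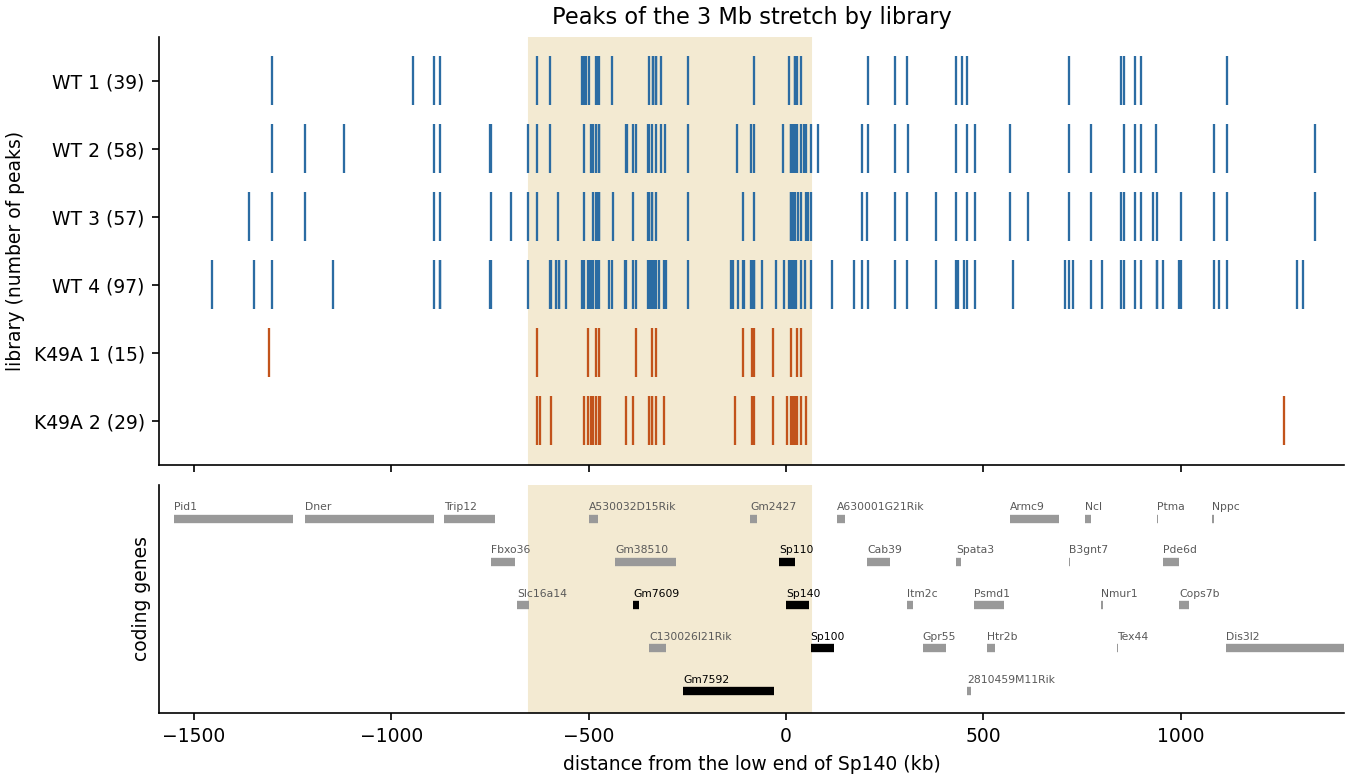
Each vertical line is the midpoint of 1 peak, by library, against the distance in kb from the low-coordinate end of Sp140, with the protein-coding genes below and the interval between Slc16a14 and Sp100 shaded. WT peaks run along the whole 3 Mb, while 14 of 15 peaks of K49A 1 and 28 of 29 peaks of K49A 2 fall in the shaded interval.

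Between the high-coordinate end of Slc16a14, a transporter gene, and the start of Sp100 lie 715 kb (84935282 to 85649947). The limits of this interval were set after seeing the peaks, so only counts are given for it. It held 23, 31, 26 and 54 peaks in WT and 14 and 28 in K49A, and the groups overlapped. As a share of the list this was 0.203, 0.152, 0.117 and 0.194% in WT and 2.00 and 2.75% in K49A. The rest of the stretch held 16, 27, 31 and 43 peaks in WT and 1 and 1 in K49A. As a share of the list that was 0.141, 0.132, 0.139 and 0.154% in WT and 0.143 and 0.0983% in K49A, and the groups overlapped. The single K49A 1 peak there lay in Pid1 (84277532 to 84277913, fold 3.56), which encodes an adaptor protein tied to insulin signalling. The single K49A 2 peak lay in Dis3l2 (86848640 to 86848839, fold 3.07), which encodes an exoribonuclease, and neither overlapped a WT peak.

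Counts in the interval were also taken at stricter p-value limits. At a −log10 p of at least 5 it held 15, 8, 13 and 37 peaks in WT and 14 and 25 in K49A. At 6 it held 5, 2, 9 and 22 in WT and 12 and 19 in K49A, so WT 4 exceeded both K49A libraries and the other WT libraries lay below both. The interval kept 21.7, 6.45, 34.6 and 40.7% of its peaks in WT and 85.7 and 67.9% in K49A at that limit. The whole lists kept 27.3, 17.3, 20.3 and 22.1% in WT and 66.7 and 64.1% in K49A, so a smaller loss in K49A was seen in the whole lists too. In the rest of the stretch, 5, 8, 10 and 9 WT peaks and no K49A peak passed 6. A count of 0 in K49A lists of 467 and 652 peaks allows a share of up to 0.642% and 0.460%.

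**Figure D2:**
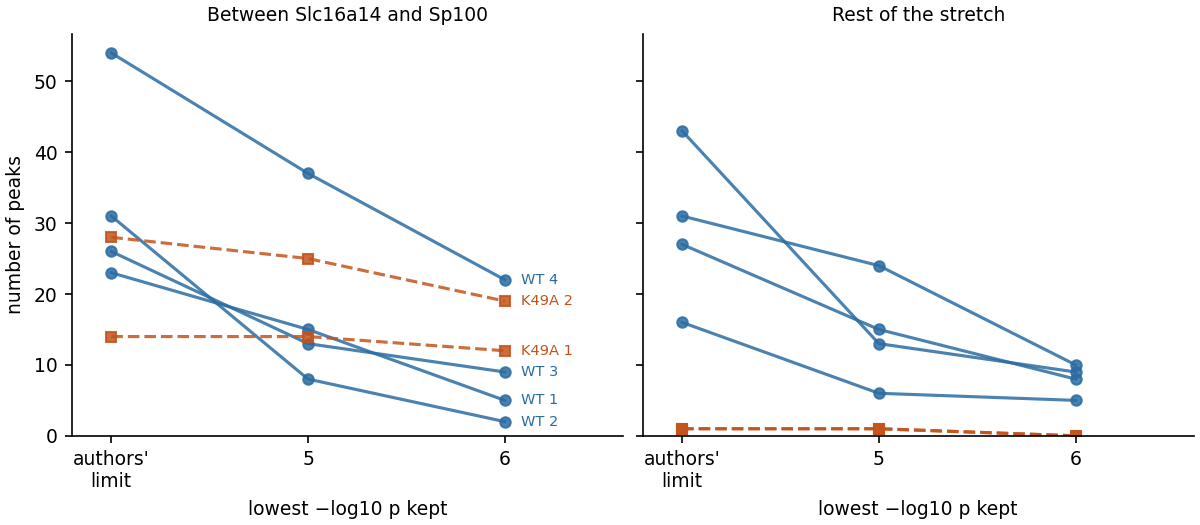
Number of peaks per library (circles and solid lines WT, squares and broken lines K49A) against the lowest −log10 p kept, in the interval between Slc16a14 and Sp100 and in the rest of the stretch. In the interval K49A 1 goes from 14 to 12 and K49A 2 from 28 to 19 while WT 2 goes from 31 to 2; in the rest both K49A libraries stay at 0 or 1.

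Among the speckled protein genes, Sp140 (85587491 to 85645040) carried the most peaks. Its model held 5, 8, 8 and 8 peaks in WT and 3 and 7 in K49A. Sp110 (85570735 to 85610850), whose model overlaps that of Sp140, held 3, 4, 4 and 6 in WT and 1 and 4 in K49A. Sp100 itself (85649948 to 85709998) held 0, 2, 1 and 2 in WT and none in K49A. All K49A peaks counted in Sp110 lie in the part it shares with Sp140, so they are the same peaks counted for both genes. No K49A peak lay in Sp100 or in the part of Sp110 outside Sp140.

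Of these 3 genes, Sp140 alone had a K49A peak within 1 kb of an end of its model, in K49A 2 (fold 2.79), and WT 3 had one at the other end (fold 3.04). A merged region at 85600864 to 85601430, just past the Sp140 start printed above, was called in WT 2, WT 3 and WT 4 (folds 2.84, 3.03 and 2.66) and in both K49A libraries (3.49 and 2.80). At the Sp140 promoter window the nearest peak lay 337 and 226 bases away in K49A and 5511, 163, 111 and 281 bases away in WT. At the near-identical A530032D15Rik window it lay 2154 and 4081 bases away in K49A and 1198, 2193, 1485 and 1511 bases away in WT. No peak of any library overlapped either window.

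At the start that Gm7609 shares with Sp100, the lists place peaks differently at the 2 copies. Which copy the reads came from is uncertain, as stated above, so this is not read as a difference between the genes. Peaks of WT 2, WT 4 and K49A 2 overlapped the Gm7609 window, and WT 3 had a peak 9 bases away. Their merged region (85198807 to 85199917) had folds of 3.15, 3.56 and 3.45 in WT 2, WT 3 and WT 4 and of 3.15 in K49A 2. The later Sp100 window was overlapped by none. The nearest peaks to it lay 90, 257 and 64 bases away in WT 2, WT 3 and WT 4, and 24195 bases away in WT 1. In K49A they lay 24234 and 11316 bases away.

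The long models of the copied region held many of the other K49A peaks, while 3 of the 14 K49A 1 peaks and 7 of the 28 K49A 2 peaks of the interval lay in no coding gene. Gm38510 (85155201 to 85309015) held 6, 10, 6 and 15 peaks in WT and 3 and 7 in K49A. C130026I21Rik, which lies inside it, held 5, 4, 3 and 8 in WT and 2 and 4 in K49A. Gm7592 (85326832 to 85555681) held 2, 4, 3 and 12 in WT and 4 and 4 in K49A. A530032D15Rik held 2, 3, 2 and 4 in WT and 1 and 3 in K49A. The lists end at different p-values, and no share over all coding genes was counted for peaks inside a gene. The counts inside genes, here and for the speckled protein genes, are therefore read no further. Peaks were missing from one long part of the interval: between 85340219 and 85448298, within Gm7592, no library had a peak over 108 kb.

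**Figure D3:**
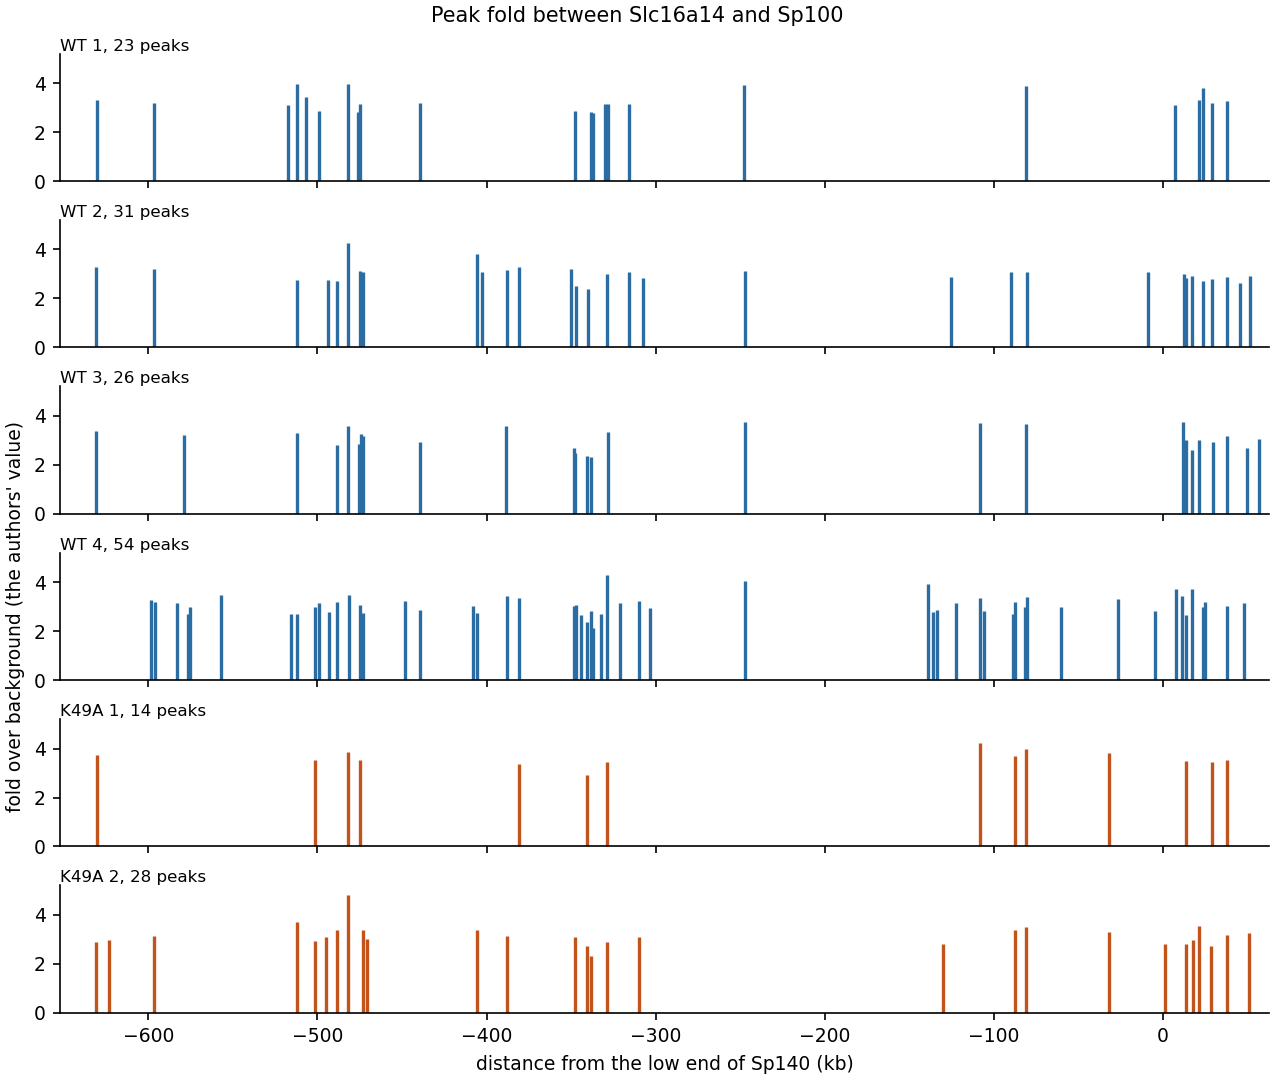
Fold over background of each peak (the authors' value, vertical axis) in the interval between Slc16a14 and Sp100, by library, against the distance in kb from the low-coordinate end of Sp140. The highest peak of K49A 2 (4.82) stands at the same place as peaks of all the other libraries, and no library has a peak across 108 kb in the lower part of Gm7592.

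Merging the 6 lists over overlaps of at least 1 bp gave 44749 regions in the genome and 135 in the stretch. Peaks in all 6 libraries were found for 4 of the 135, against 0.574% of all regions. At least 1 K49A library had a peak in 33 of the 135, or 24.4%, against 2.94% of all regions, and 31 of the 33 lay between Slc16a14 and Sp100. The stretch was chosen by its peaks, so these shares are read no further.

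All 4 regions called in every library lay in the interval. The first spans 85105355 to 85106316 in A530032D15Rik and the lncRNA gene A530040E14Rik, with folds of 3.96, 4.28, 3.59 and 3.49 in WT and 3.86 and 4.82 in K49A. Its K49A 2 peak had a −log10 q of 10.9, against 3.60 to 5.27 in WT and 2.74 in K49A 1. The second spans 85258314 to 85259672 in C130026I21Rik, with folds of 3.13, 2.99, 3.33 and 4.28 in WT and 3.44 and 2.90 in K49A. The third, at 85506478 to 85507114, lies in Gm2427 and Gm7592, with folds of 3.88, 3.08, 3.68 and 3.38 in WT and 3.98 and 3.51 in K49A. The last lies inside Sp140 at 85624961 to 85625570, with folds of 3.28, 2.89, 3.19 and 3.05 in WT and 3.53 and 3.17 in K49A. In each of the 4 regions, 1 of the 2 K49A folds lay within the range of the WT folds.

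A single region was called in both K49A libraries and no WT library, against 0.0469% of all regions. It spans 85555322 to 85555570 at the high end of the Gm7592 model and had folds of 3.81 and 3.29, with a −log10 q of 2.58 and 2.72. It made Gm7592 the one coding gene of 32 in the stretch with an end peak (within 1 kb) in both K49A libraries. Over the genome, 0.137% of 21887 coding genes had such peaks. Outside the coding genes, the lncRNA gene A530040E14Rik had an end peak in both K49A libraries (folds 3.86 and 4.82) and in all 4 WT libraries.

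Regions with a peak in all 4 WT libraries and in no K49A library numbered 14 of 135, or 10.4%, beside 13.8% of all regions, a share near the background. Of these 14, 13 lay outside the interval between Slc16a14 and Sp100. The highest mean fold among them, 5.31 ± 0.92 (SD, n = 4), belonged to a narrow region between Cab39 and Itm2c at 85864448 to 85864710, 12870 bases from Cab39. Its folds were 5.02, 5.33, 6.55 and 4.36. The next were the Cab39 start (85792628 to 85794526, mean fold 3.76), a site in Gm7592 and the pseudogene Gm7281 (85339744 to 85340218, 3.71), a Pid1 start at 84284095 to 84285395 (3.71) and Dis3l2 (86703088 to 86704576, 3.35). The Gm7592 site was the one region of this class inside the interval.

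**Figure D4:**
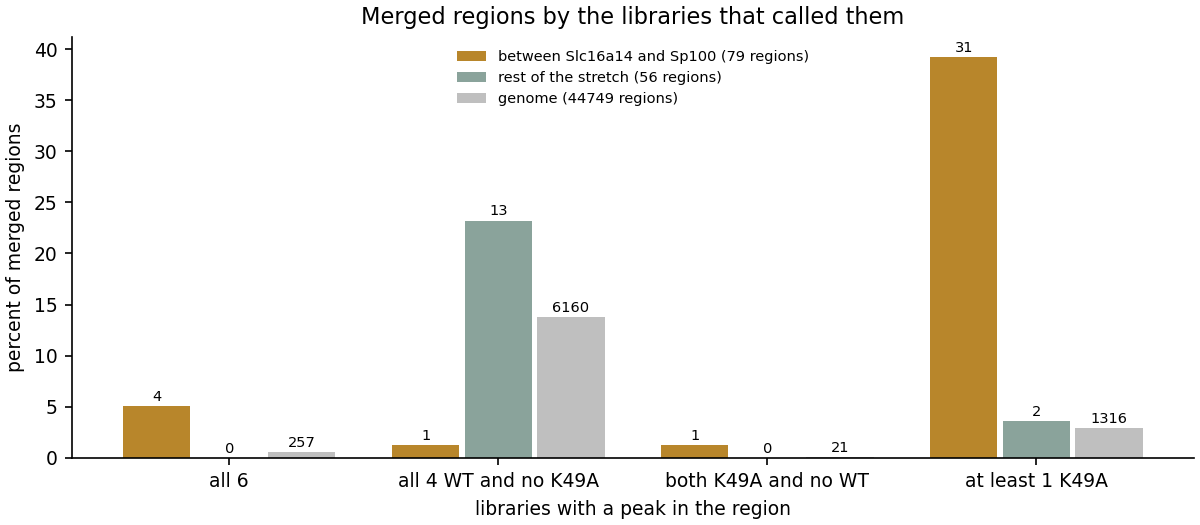
Percent of merged regions (bars, with the number of regions above each) by the libraries that called them, for the interval between Slc16a14 and Sp100, the rest of the stretch and the genome. Regions with at least 1 K49A peak make up 31 of 79 in the interval and 2 of 56 in the rest. Regions called in all 4 WT libraries and no K49A library make up 1 of 79 and 13 of 56. The limits of the interval were set after seeing the peaks, so these contrasts are descriptions only.

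Peaks at gene ends were also counted by coding gene. A peak within 1 kb of an end was present in all 4 WT libraries for 6 of the 32 coding genes, beside 22.1% of all coding genes. They were Dner, Cab39, Itm2c, Spata3, 2810459M11Rik and B3gnt7. Dner, a Notch ligand of neurons, had end folds of 3.39, 3.21, 2.97 and 2.74, and Cab39 had 4.73, 3.29, 3.24 and 3.78. Each fold is that of the peak with the highest −log10 q at either end. For Dner in WT 2 that peak lay at the low-coordinate end, and the WT 2 peak at the other end had a fold of 2.57. A peak at an end in at least 1 K49A library was found for 3 of the 32 genes, beside 0.626% of all coding genes. The 3 were among the 8 genes of the interval, namely Gm7592 in both and Gm7609 and Sp140 in K49A 2. The limits of the interval were set after seeing the peaks, so this placing is read no further. At that background, none among the 24 genes outside the interval says nothing about them.

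In the promoter windows, 3 of 43 were overlapped by a peak in all 4 WT libraries (Pid1, Dner and B3gnt7), beside 8.41% of all windows. The Gm7609 window was the one overlapped in at least 1 K49A library, beside 0.128% of all windows. The windows of the interval held a median of 5 CpG pairs, those of the rest of the stretch 8 and those of the whole genome 7. Over the genome, windows with a peak in all 4 WT libraries and no K49A library held a median of 31. The GC box GGGCGG, read on both strands, was found in 41.9% of the windows of the stretch and 35.6% of all. The core of the interferon response element, GAAANNGAAA on either strand, was found in 1 window of the stretch, that of Fbxo36. Over the genome it was found in 3.43% of windows. These letters, with that spacing, were thus absent from the printed starts of Sp100 and Sp140. Other spacings were not searched, so an element of another form there is not excluded.

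The Dner start also holds a microRNA, miR-5126, at chr1:84695890-84695911 on the plus strand. It is shown because a peak of all 4 WT libraries and of no K49A library lies over it, and because all of its bases are G or C (capitals mark the seed, bases 2 to 8, in RefSeq's sequence). The other microRNAs of the stretch, miR-6353, miR-8096 and miR-3535, had no peak over them in any library. The share over all microRNAs of the genome was not counted, so these calls are read no further.
miR-5126: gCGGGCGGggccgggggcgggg

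Position relative to genes was tested, but it derives from the peak positions by which the stretch was chosen. The genes of the stretch came with that choice. The p-values for gene position, here and against the rest of each list, are therefore not independent of it. Peaks within 1 kb of a coding gene end made up 23.1, 31.0, 29.8 and 21.6% of the stretch's peaks in WT and 6.67 and 10.3% in K49A. The groups did not overlap, and the mean was 17.9 percentage points lower in K49A (SE 3.71). The exact permutation test over libraries, two-sided, gave p = 0.133, which is the smallest value that 4 against 2 libraries allow. The rest of the lists differed between the groups as well, at 36.8 to 51.1% in WT and 12.4 and 7.29% in K49A. With gene ends widened to 5 kb the difference was −6.99 points (SE 4.08), and with lists of equal length −10.9 (SE 18.0). Inside the interval between Slc16a14 and Sp100 the mean shares were close, 9.46% in WT and 8.93% in K49A, and the WT peaks at gene ends lay mostly outside it.

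Within each list, the stretch had a lower share of peaks at gene ends than the rest of the list in 5 of 6 libraries, by a mean of 11.8 points (SE 4.22). The exact sign-flip permutation test gave p = 0.0625, or 0.25 after Benjamini-Hochberg adjustment over the 4 within-list comparisons, and the smallest p it allows is 0.0312. With ends of 5 kb the mean was −4.22 points (SE 6.14; adjusted exact permutation p = 0.708). The share of peaks inside a coding gene was 59.0, 77.6, 68.4 and 71.1% in WT and 80.0 and 75.9% in K49A. Between the groups this differed by 8.90 points (SE 5.93; exact permutation p = 0.267). Against the rest of the same list it was higher in 5 of 6 libraries, by a mean of 17.6 points (SE 8.58; exact permutation p = 0.125, adjusted p = 0.25). The K49A libraries made up most of that mean, with 43.8 and 41.3 points against −9.45 to 15.8 in WT. Neither value was stable: at equal list length the group difference was 37.2 points and that against the rest of the list 1.32 points, and with the −log10 p limit set to 6 the group difference was 0.891 points. Models in the copied region are long and overlap, and this was not allowed for.

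**Figure D5:**
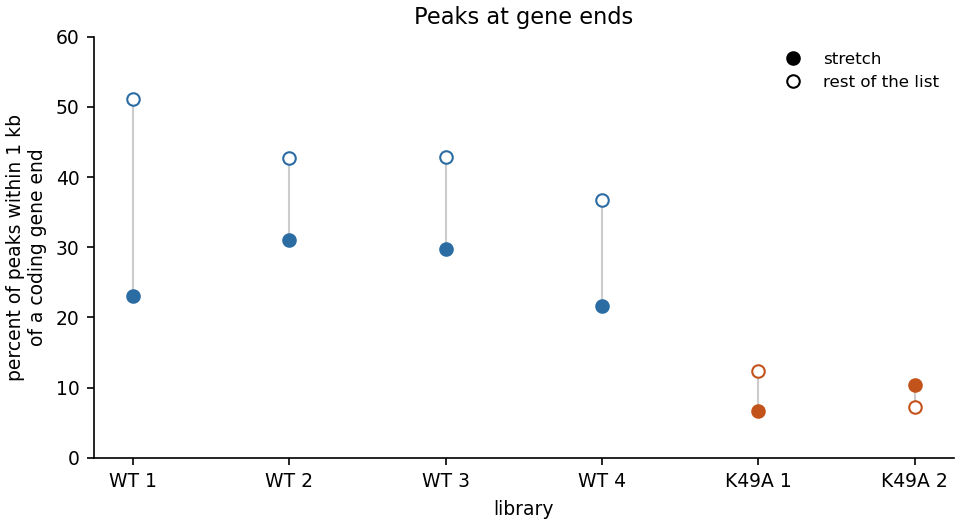
Percent of peaks within 1 kb of a protein-coding gene end (vertical axis) in each library, for the stretch (filled) and the rest of the same list (open). The stretch lies below the rest in the 4 WT libraries and in K49A 1, and above it in K49A 2 (10.3 against 7.29%).

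Width derives from the same peak coordinates, so its p-values carry the same limit. Fold had no part in choosing the stretch. Median widths were 344, 595.5, 453 and 350 bp in WT and 373 and 356 bp in K49A, and the groups overlapped (log2 difference −0.22, SE 0.28; exact permutation p = 0.8). Median folds were 3.17, 3.00, 3.11 and 2.94 in WT and 3.53 and 3.10 in K49A. Against the rest of the same list the median fold differed by 0.02 on the log2 scale (SE 0.02; exact permutation p = 0.406, adjusted p = 0.542). The median width also differed by 0.02 (SE 0.10; exact permutation p = 0.781). That mean joins unlike groups, with −0.261 to 0.096 in WT (mean −0.12) and 0.276 and 0.309 in K49A (mean 0.29), which did not overlap. The difference between the groups was not tested. A p above the threshold in so few libraries does not show that the values were the same.

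Peaks were also compared by overlap between libraries. Of the K49A peaks in the stretch, 13 of 15 in K49A 1 and 22 of 29 in K49A 2 overlapped a WT peak. This count was not made for the rest of the lists. By merged region, 8 of the 33 regions of the stretch with a K49A peak had no WT peak. Over the genome 480 of 1316 such regions had none. Taking 1 WT and 1 K49A library at a time, 20.7% of the WT peaks of the stretch overlapped a K49A peak on average (11.3 to 29.3), beside 2.40% (1.55 to 3.62) in the rest of the lists. The stretch was chosen by the positions of peaks in these lists, so that contrast is read no further. K49A peaks overlapped a given WT list in 58.0% of cases, beside 55.6% in the rest of the lists. WT peaks overlapped another WT list in 57.4% of cases, beside 53.1%. These shares were near those elsewhere. Between the K49A libraries 73.3% of the K49A 1 peaks (11 of 15) and 37.9% of the K49A 2 peaks (11 of 29) were shared. In the rest of the lists 54.3% and 37.3% were.

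A pairing by file name was added after seeing the data. The file names group WT 1 with K49A 1 and WT 4 with K49A 2, and the meaning of this grouping is not stated in the sources used here. Within these pairs the stretch held 39 against 15 and 97 against 29 peaks, and gene ends took 23.1 against 6.67% and 21.6 against 10.3%. Both pairs thus had the direction of the pooled values for number and for gene ends. Median width did not, with 344 against 373 bp and 350 against 356 bp.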

How the data were processed

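Peak lists of 6 libraries were read as the authors deposited them, 1 list per library. Per the submitters' processing notes the tools were FastQC, BWA, Picard, SAMtools and MACS2 on mm10. The sources used here do not state their versions and settings, the background of the peak calling or the handling of reads that match several places. The authors' values per peak are a score, a fold over background, a −log10 p and a −log10 q. The score was not used. The replicate numbers and groups came from the sample titles.

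Peaks that lie between the limits of the stretch were taken by position. Genes came from a RefSeq table (GRCm38.p6, 21887 protein-coding genes), and promoter and microRNA sequences from RefSeq tables of that build. A peak was at a gene end when it lay within 1 kb of either end, and in a gene when its midpoint did. Groups were compared by exact permutation over the 15 splits of libraries and lists by exact sign flips over 64 patterns, two-sided, in Python 3.11.15 with NumPy 2.4.6, pandas 2.3.3, SciPy 1.17.1 and Matplotlib 3.10.9. The region classes were checked on simulated peak lists, and the permutation and sign-flip tests on short fixed sets of values. Regions were named when called in both K49A libraries and no WT library, or when among the 5 highest mean folds in all 6 or in the 4 WT libraries alone. Genes named are the 5 of the rule and every protein-coding gene whose end held a peak in both K49A or all 4 WT libraries. Non-coding genes that met this limit were named only in part. Others, among them Sp110's neighbours in the copied region, Pid1 and Dis3l2, were named after their values were seen. The comparison of promoter windows was also added then. Members, lists and tests were chosen with earlier results of these data known. Alternatives were other p-value limits, lists of equal length, other overlaps, gene ends of 5 kb, peaks wholly inside the stretch, each library left out and pairing by number or by file name.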

Additional observations from a re-analysis of the deposited data

Results flagged for a closer look

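The median fold of stretch peaks against the rest of the same list moved in opposite directions in the groups. On the log2 scale the mean was 0.0407 in WT, above 0 in 4 of 4 libraries, and −0.0256 in K49A, below 0 in 2 of 2. WT 1 at 0.0045 and K49A 2 at −0.0042 lay very near 0. The difference between the groups was not tested.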

How the results depend on the processing

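Read depth is unknown, the authors' q limit fell at another p-value in each list, and 2 mutant libraries limit every comparison. Of the log2 differences between K49A and WT, the number of peaks became −0.64 with the −log10 p limit set to 5 and −0.045 with it set to 6 (chosen after seeing the data). The covered length became −1.05 and −0.41. With lists of 700 peaks both turned over, to 3.18 and 3.14. The difference in share of the list was 2.79 to 3.22 at limits of 5 and 6, at equal length and with 1 library left out. With the limit at 10 the order of the means turned, to 0.274% in WT and 0.192% in K49A (0 and 0.383%), from 0 to 2 peaks a library, with no log2 value for K49A 1.

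Median fold against the rest of the list turned to −0.0060 and −0.024 at limits of 5 and 6. Median width against the rest turned to −0.11 and −0.35 at these limits, to −0.21 at equal length, and to −0.038 and −0.031 without K49A 1 or K49A 2, and was at most 0.076 with 1 library left out. Median width between groups turned to 0.071 within the pairs of file names.

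Regions called in all 6 libraries numbered 1, 0 and 1 at limits of 5, 10 and 6, and 0 with a peak required over 0.5 of a region's length. Regions called in all 4 WT and no K49A library numbered 3, 1, 3 and 1, and those called in both K49A and no WT library 3, 0, 3 and 2. Leaving out 1 library gave 4 to 6, 14 to 22 (22 without WT 1) and 1 to 7 regions (7 without K49A 1, 3 without WT 4, 2 without K49A 2). For the other results it gave −1.99 to −1.04 for number, −2.43 to −1.24 for covered length (lowest without K49A 2, highest without K49A 1) and −19.7 to −16.1 points at gene ends.

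With a replicate block by title number, which 2 pairs share, number was −1.19, share 2.98, covered length −1.53, width −0.31, the share in genes 9.65 points and that at gene ends −18.6 points, and no direction changed. Whether these numbers pair the libraries could not be checked with 2 pairs. Number and covered length have no log2 value at the limit of 10 either, and the measures that need peaks in K49A 1 have none there. Against the rest of the list, the share in genes became 1.32 points at equal length and the share at gene ends −4.22 with ends of 5 kb. Between groups these became 37.2 and −6.99 points there, and 0.891 in genes at the limit of 6. The remaining values kept their direction, not always their size.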
